A study of Mus musculus with 12 samples.

Results

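Cdx2, Eomes, Elf5, Tfap2c, Esx1, Plac1 and Hand1 are genes of the trophectoderm and of the trophoblast that grows from it. Their chromatin was followed by ATAC-seq while mouse embryonic fibroblasts were converted to induced pluripotent stem cells (iPSC). In this assay the Tn5 transposase cuts and tags open DNA, so reads near a gene stand for accessibility and not for expression. The 7 genes were chosen by name among 21883 protein-coding genes. Every counted region that overlaps the span of one of them in the mm10 build, or lies within 10 kb of either end, was taken. This gave 33 of 115000 counted regions, covering 17650 bp: 5 for Cdx2, 6 for Eomes, 4 for Elf5, 5 for Tfap2c, 1 for Esx1, 10 for Plac1 and 2 for Hand1. Of these 20 touch the gene itself and 13 lie outside it. Another gene is also linked to 5 of them, namely Urad to regions 4 and 5 of Cdx2, Cat to region 4 of Elf5, Fam122b to region 10 of Plac1 and Sap30l to region 1 of Hand1. Regions are numbered from the low to the high coordinate.

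Each of 4 groups had 3 libraries, all from a mixed C57BL/6 x 129 background. The MEF group was unsorted mouse embryonic fibroblasts. Stage 1 means day 6 of the protocol, and Stage 2 a point 4 days later. Cells of both stages and the established iPSC were sorted as Oct4-GFP+, that is, for a fluorescent reporter of the pluripotency gene Pou5f1. The labels name the method 3c enhanced reprogramming. The meaning of 3c and the factors used are not given in the sources used here. Sorting and stage cannot be told apart in any comparison with MEF. The labels do not tie replicates to separate animals or cultures, so the p-values reflect variation among these libraries only, which could be technical.

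The trophectoderm is the outer layer of the blastocyst and founds the placenta, while the inner cells that iPSC resemble found the embryo. Cdx2, a homeobox factor, and Eomes, a T-box factor, are needed for the trophoblast stem cell state, and Cdx2 and Oct4 oppose each other in the blastocyst. Tfap2c encodes the AP-2 gamma factor, which also acts in germ cells. Elf5, an ETS factor, sustains Cdx2 and Eomes, and its promoter is known to be methylated in the embryonic lineage. Esx1 is an X-linked homeobox gene of the placenta and testis, Hand1 a basic helix-loop-helix factor of trophoblast giant cells and of the heart, and Plac1 an X-linked gene of the placental trophoblast.

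Promoter windows of RefSeq (GRCm38.p6, the assembly of mm10), from 250 bp before to 50 bp after a start, were matched by gene for 5 genes: 1 each for Cdx2, Eomes and Esx1, and 2 each for Elf5 and Plac1. Tfap2c and Hand1 had none in the table. No window of the 7 overlapped a counted region, against 46.3% of 32851 windows of all genes. The nearest region lay 1950 bp away for Cdx2, 213 bp for Eomes, 1727 bp for Esx1, 98 and 434 bp for the starts of Elf5, and 196 and 5911 bp for the starts of Plac1. The counted regions of these genes thus lie outside these windows, and sequence is shown for the 250 bases before 4 of those starts. Those of Cdx2, Elf5 and Esx1 hold a searched motif, and the one of Plac1 stands beside a region that lost its reads after MEF. Capitals mark the motif matches, and each line reads 5′ to 3′ on the strand of the gene.
Cdx2, chr5:147307250-147307499, minus strand: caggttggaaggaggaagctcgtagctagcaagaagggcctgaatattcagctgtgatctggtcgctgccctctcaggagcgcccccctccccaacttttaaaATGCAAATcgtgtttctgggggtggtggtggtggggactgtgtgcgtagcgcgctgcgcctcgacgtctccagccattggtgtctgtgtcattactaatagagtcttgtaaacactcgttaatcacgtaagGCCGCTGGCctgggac
Elf5, first start, chr2:103411848-103412097, plus strand: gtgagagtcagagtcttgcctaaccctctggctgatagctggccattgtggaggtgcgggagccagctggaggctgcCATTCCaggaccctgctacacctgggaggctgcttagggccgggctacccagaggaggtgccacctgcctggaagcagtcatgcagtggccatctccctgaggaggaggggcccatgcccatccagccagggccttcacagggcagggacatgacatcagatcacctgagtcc
Esx1, chrX:137120327-137120576, minus strand: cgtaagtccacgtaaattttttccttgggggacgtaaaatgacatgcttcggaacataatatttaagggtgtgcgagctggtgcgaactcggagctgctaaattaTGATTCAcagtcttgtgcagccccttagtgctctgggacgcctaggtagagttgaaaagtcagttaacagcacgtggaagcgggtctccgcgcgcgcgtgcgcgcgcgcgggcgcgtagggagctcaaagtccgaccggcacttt
Plac1, start near region 2, chrX:53114406-53114655, minus strand: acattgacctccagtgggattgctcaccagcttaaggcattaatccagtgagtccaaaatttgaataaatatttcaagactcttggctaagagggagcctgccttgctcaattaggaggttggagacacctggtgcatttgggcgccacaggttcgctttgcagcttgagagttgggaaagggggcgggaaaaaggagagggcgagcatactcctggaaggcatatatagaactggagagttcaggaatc

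Of 8 motifs searched on both strands, 5 matched in the windows. The Cdx2 window holds the octamer ATGCAAAT, 147 bp before the start, a string present in 1.74% of all windows. It also holds an AP-2 match, GCCGCTGGC, 16 bp before the start (GCCNNNGGC, in 16.6% of windows). The first Elf5 window holds the Tead string GGAATG, read as CATTCC, 173 bp before the start (14.7%), and the Esx1 window an AP-1 match, TGATTCA, 145 bp before it (TGANTCA, 7.81%). The upstream Plac1 start has the Gata string AGATAA, read as TTATCT, 246 bp before it (11.2%). Sox (CATTGTT, 3.78%), T-box (AGGTGTGA, 1.28%) and Cdx (TTTATGG, 2.75%) strings were found in none of the 7 windows. In base composition the windows differ. The first Elf5 window is 60.7% G and C with 3 CpG, and the Esx1 window 54.0% with 24 CpG, against medians of 52.7% and 7 CpG over all windows. A match is a string in this window and not a bound site.

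Libraries held 14310290 to 32229388 reads. Of these, MEF libraries had 16.7% ± 5.37 in regions (MEF replicate 1 the most, at 22.1%), Stage 1 libraries 7.64% ± 0.415, Stage 2 libraries 6.03% ± 0.813 and iPSC libraries 4.94% ± 0.395 (SD over 3 libraries). Near 8 naive pluripotency genes the summed accessibility was 244 to 260 CPM (reads scaled to a common library size, counted in regions) in MEF and 937 to 997, 1124 to 1196 and 940 to 1065 CPM in Stage 1, Stage 2 and iPSC. Near 8 fibroblast genes it was 894 to 971 CPM in MEF and 352 to 382, 331 to 384 and 460 to 469 CPM later. Both lists move in the direction of the labels. The 6 endothelial genes summed to 264 to 273 CPM in MEF and 144 to 254 CPM in the later groups, 5 of 6 macrophage genes had a linked region and summed to 160 to 228 CPM over all libraries, and the 6 primitive endoderm genes went from 122 to 143 CPM in MEF to 280 to 299 CPM in iPSC. No list was at 0 in any group, and the part of other cell types in the results below was not tested.

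Between MEF and Stage 1, accessibility rose near 6 of the 7 genes and fell near Plac1, with no overlap between the libraries of the groups for any of the 7. Of all 17536 genes tested, 32.6% lay above the MEF libraries and 34.1% below them without overlap. Tfap2c had the largest rise, 4.94-fold, and Plac1 fell to 0.119 of its MEF level. Among all genes, 32.4% were called higher and 32.7% lower in this comparison, so the count is to be read against a background in which most genes differ. The 7 genes had a median log2 fold change of 1.39, against -0.01 over all genes. In bulk libraries, more cells with an open site and a site more open in each cell cannot be told apart.

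The direction depends on what the reads are scaled to. The values above are set against reads counted in regions. When all reads of a library were used for scaling, the median gene of this comparison moved to -0.96 on the log2 scale. With it 2 of the 7 genes were higher, Tfap2c at 1.36 and Esx1 at 1.21 on the log2 scale, and Plac1 was lower at -4.03 (edgeR adjusted p = 2.4e-06, 0.00706 and 7.87e-32). Cdx2 (0.56, adjusted p = 0.0510), Eomes (0.46, 0.113) and Hand1 (0.02, 0.956) were not called with it, and Elf5 was at -0.29 (0.378). Over all genes the split went from 5685 higher and 5731 lower to 1326 higher (7.56%) and 12231 lower (69.7%). A further view sets the reads against those expected from the read density outside regions. By that measure Tfap2c stood at 3.06 times background in MEF (2.24 to 3.97) and 6.995 times in Stage 1 (6.46 to 7.97), with no overlap. Cdx2 went from 3.31 (2.11 to 4.63) to 4.34 times (3.83 to 4.90) and Eomes from 5.004 (2.64 to 6.38) to 6.12 times (5.63 to 6.39), with overlap. Elf5 stood at 4.09 and 2.99 times and Hand1 at 3.87 and 3.52 times, so the rise of these genes in CPM had no counterpart over background. Background density was estimated from whole libraries and was not tested for evenness along the genome.

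**Figure D1:**
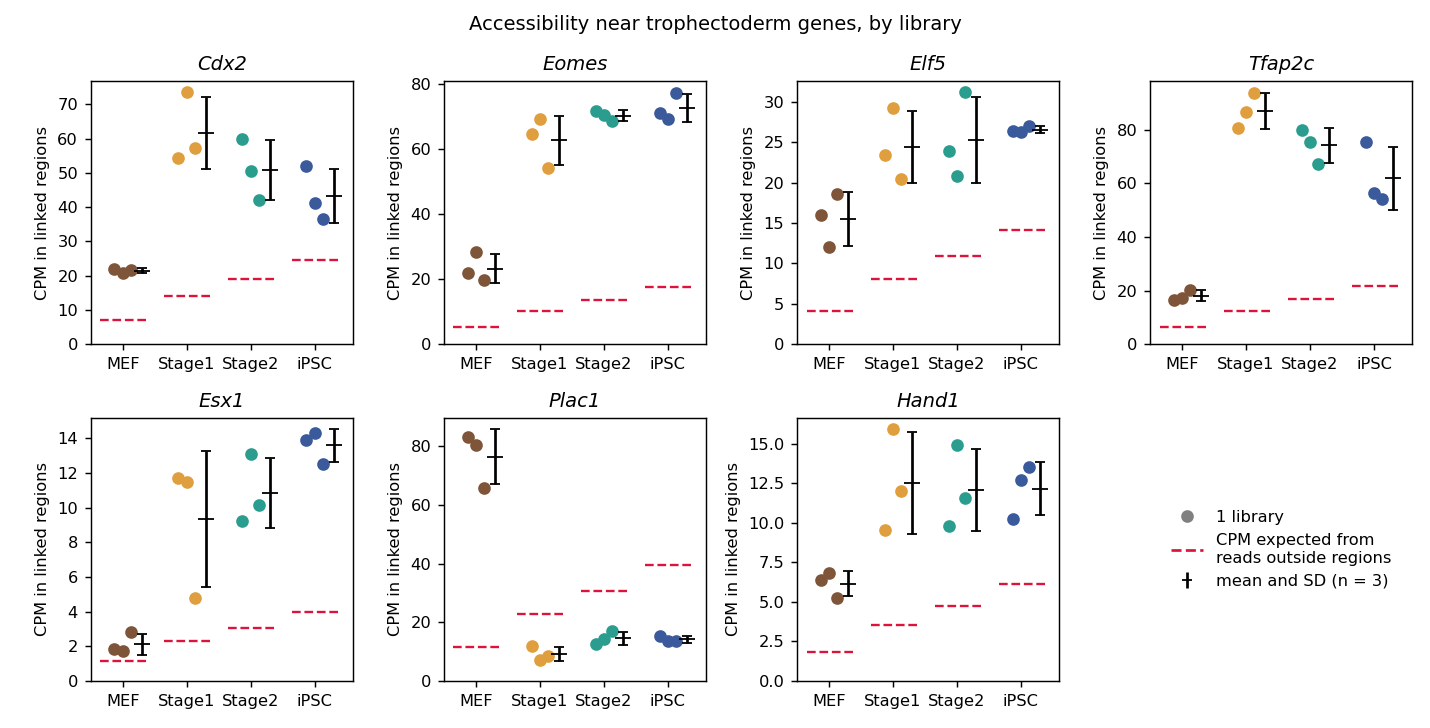
Accessibility near each gene (vertical axis, CPM summed over its linked regions) in the 12 libraries, grouped by stage on the horizontal axis. Points are libraries, bars the mean and SD of 3, and dashed lines the CPM expected from reads outside regions. Plac1 lies at 65.6 to 83.0 CPM in MEF and below its dashed line in the 9 later libraries, while the other 6 genes are lowest in MEF.

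Tfap2c (chr2:172545678-172558622; strand not in the table used) had 16.6, 17.1 and 20.4 CPM in the MEF libraries. Stage 1 libraries had 80.6, 86.8 and 93.9 CPM, Stage 2 libraries 79.9, 75.6 and 67.2 CPM, and iPSC libraries 75.5, 56.4 and 54.0 CPM. MEF libraries were the lowest and Stage 1 libraries the highest without overlap. The log2 fold change from MEF was 2.30 ± 0.14 in Stage 1 (SE, edgeR adjusted p = 9.69e-25), 2.08 ± 0.14 in Stage 2 (1.3e-22) and 1.83 ± 0.15 in iPSC (1.63e-17). The last became 0.13 (adjusted p = 0.650) with scaling to all reads.

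All 5 regions of Tfap2c were tested and all 5 rose from MEF to Stage 1, of which region 4 was not called with scaling to all reads (0.43, adjusted p = 0.247). Region 1 (chr2:172544551-172545100), 578 bp outside the lower end of the gene, had 1, 5 and 5 reads in MEF, 24, 14 and 24 in Stage 1, 24, 26 and 11 in Stage 2 and 14, 6 and 6 in iPSC. In MEF it stood at 0.724 times background, that is, at a level like that of uncounted DNA, and in Stage 1 at 6.49 times, with a log2 fold change of 3.93 ± 0.42 (SE, edgeR adjusted p = 9.02e-15). Region 5 (chr2:172568351-172568950), 9729 bp beyond the upper end, had 4, 7 and 5 reads in MEF, 19, 21 and 38 in Stage 1, 20, 14 and 15 in Stage 2 and 19, 14 and 9 in iPSC. Its log2 fold change from MEF to Stage 1 was 3.74 ± 0.36 (SE, adjusted p = 5.68e-17). Region 4 (chr2:172550301-172551100), inside the gene, held the most reads and is on the interval list of every stage. It rose by 1.16 ± 0.23 (SE, log2, adjusted p = 2.17e-06) from 13.02 ± 2.601 CPM in MEF to 29.7 ± 1.44 CPM in Stage 1 (SD, n = 3 each). In MEF, then, region 4 was a listed interval while the flanking region 1 was at background level.

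Cdx2 (chr5:147300900-147307249, minus strand) had 21.9, 20.7 and 21.8 CPM in MEF, 54.2, 73.5 and 57.2 CPM in Stage 1, 59.8, 50.6 and 42.1 CPM in Stage 2 and 52.1, 41.3 and 36.7 CPM in iPSC. Every later library was above every MEF library. The log2 fold change from MEF was 1.50 ± 0.15 in Stage 1 (SE, edgeR adjusted p = 3.08e-14), 1.26 ± 0.15 in Stage 2 (1.6e-11) and 1.03 ± 0.17 in iPSC (1.5e-07). With scaling to all reads the iPSC value was -0.67 and called lower (adjusted p = 0.0193), and the Stage 2 value was -0.07.

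Region 4 of Cdx2 (chr5:147304201-147305250) is the one inside the gene, 1999 bp downstream of the start. It had 11, 14 and 13 reads in MEF, 29, 34 and 39 in Stage 1, 42, 29 and 15 in Stage 2 and 23, 20 and 10 in iPSC. Its log2 fold change from MEF to Stage 1 was 2.92 ± 0.30 (SE, edgeR adjusted p = 8.95e-16), and it went from 1.34 to 5.69 times background. Region 1 (chr5:147292551-147293600), 13649 bp downstream of the start and beyond the other end of the gene, held the most reads. It had 15.4, 14.4 and 12.9 CPM in MEF and 24.0, 24.7 and 19.4 CPM in Stage 1, a log2 fold change of 0.64 ± 0.24 (SE, adjusted p = 0.0131) that was -0.08 with scaling to all reads. Region 4 is also linked to Urad. Without regions linked to another gene the fold of Cdx2 was 1.15 in Stage 1 and 0.47 in iPSC against MEF (log2, adjusted p = 6.69e-08 and 0.0466). With the region inside the gene alone it was 3.17 and 2.41 (2.74e-17 and 1.53e-09).

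Eomes (chr9:118478186-118486132, plus strand) had 21.7, 28.2 and 19.7 CPM in MEF, 64.5, 69.1 and 54.1 CPM in Stage 1, 71.8, 70.3 and 68.6 CPM in Stage 2 and 71.1, 69.2 and 77.2 CPM in iPSC. Stage 2 and iPSC libraries overlapped each other and lay above MEF. Against MEF the log2 fold change was 1.39 ± 0.14 in Stage 1 (SE, edgeR adjusted p = 8.01e-14), 1.57 ± 0.13 in Stage 2 (2.12e-17) and 1.61 ± 0.14 in iPSC (1.76e-16). With scaling to all reads the 3 values were 0.46, 0.25 and -0.07, none of them called.

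Region 1 of Eomes (chr9:118478451-118478850), 262 bp downstream of the start, had 19, 20 and 5 reads in MEF, 13, 7 and 15 in Stage 1, 22, 19 and 16 in Stage 2 and 18, 13 and 19 in iPSC. Its log2 fold change from MEF was 1.20 ± 0.36 in Stage 1 and 1.70 ± 0.33 in iPSC (SE, edgeR adjusted p = 0.00191 and 2.68e-06). The Stage 1 call was lost with libraries thinned to equal depth (0.61, adjusted p = 0.236), and both calls with all reads (0.48, 0.299, and 0.44, 0.310). Region 2 (chr9:118479051-118479500), also in the gene, rose most of the Eomes regions that passed the filter on low counts. It went from 4.41 ± 1.62 CPM in MEF to 15.05 ± 4.401 CPM in Stage 1 (SD, n = 3 each), a log2 fold change of 1.73 ± 0.34 (SE, adjusted p = 2.73e-06). Region 3 failed that filter and rose by 3.01 when tested without it (log2, edgeR adjusted p = 1.4e-05). Tests without the filter also recomputed the scaling factors, so their folds are not on the scale of the CPM given here. Region 6 (chr9:118489501-118490050), beyond the far end of the gene, held the most reads and is on all 4 interval lists. It had 13.3 ± 1.52 CPM in MEF and 18.2 ± 6.47 CPM in Stage 1 (SD, n = 3 each) and was not called (0.39 ± 0.26, SE, adjusted p = 0.165). It was called higher in Stage 2 than in MEF (0.53 ± 0.24, 0.0383), a call that DESeq2 did not make (0.0863) and that was -0.49 with scaling to all reads.

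Elf5 (chr2:103412098-103450989, plus strand) had the smallest rise of the 6 genes. It had 16.1, 11.99 and 18.6 CPM in MEF, 23.5, 29.2 and 20.5 CPM in Stage 1, 23.9, 20.8 and 31.2 CPM in Stage 2 and 26.4, 26.2 and 27.0 CPM in iPSC. On the log2 scale the change from MEF was 0.66 ± 0.20 in Stage 1 (SE, edgeR adjusted p = 0.00384), 0.72 ± 0.19 in Stage 2 (0.000689) and 0.80 ± 0.21 in iPSC (0.000499). With libraries thinned to equal depth the Stage 1 and Stage 2 calls were lost (0.54, adjusted p = 0.0629, and 0.35, 0.254). Scaled to all reads, Elf5 was called lower in Stage 2 and iPSC than in MEF (-0.62 and -0.89, adjusted p = 0.0418 and 0.00366).

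The 4 regions of Elf5 are given one by one, and differences between them were not tested. Region 1 (chr2:103411201-103411750), 348 bp upstream of the first start and 98 bp from the promoter window shown above, is on the MEF list alone. It had 25, 28 and 18 reads in MEF, 4, 5 and 1 in Stage 1, 5, 6 and 6 in Stage 2 and 2, 4 and 7 in iPSC, and did not pass the filter on low counts. It stood at 4.77 times background in MEF and at 1.13, 1.11 and 0.925 times in Stage 1, Stage 2 and iPSC. Tested without a filter, and so with recomputed scaling factors, it was not called in any of the 3 (log2 -0.77, -0.37 and -0.47 against MEF, edgeR adjusted p = 0.158, 0.438 and 0.386). The non-call thus belongs to that scaling as well as to the lifted filter. Region 2 (chr2:103424551-103425000), 483 bp downstream of the second start, had 16, 9 and 9 reads in MEF, 10, 4 and 14 in Stage 1, 22, 13 and 21 in Stage 2 and 16, 9 and 9 in iPSC. It rose by 1.22 ± 0.40 in Stage 1 and 1.49 ± 0.38 in iPSC (SE, log2, edgeR adjusted p = 0.00431 and 0.000273), though 1 Stage 1 library overlapped MEF in CPM. Both calls were lost with all reads (0.50, adjusted p = 0.302, and 0.23, 0.632). Region 3 (chr2:103439601-103440150) held the most reads, with 7.77 ± 2.37 CPM in MEF and 11.3 ± 3.73 CPM in Stage 1 (SD, n = 3 each), and was not called (0.50 ± 0.33, SE, adjusted p = 0.152). Region 4 (chr2:103456551-103456950), beyond the far end of the gene and linked to Cat as well, did not pass the filter. It had 13, 7 and 9 reads in MEF and 9, 9 and 5 in Stage 1. Stage 2 libraries had 8, 10 and 8 reads and iPSC libraries 9, 8 and 5.

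Esx1 (chrX:137115397-137122131, minus strand) is linked to a single region inside the gene (chrX:137118001-137118550), 1776 bp from the start shown above. Its counts were 11, 9 and 8 reads in MEF, 16, 13 and 8 in Stage 1, 17, 22 and 15 in Stage 2 and 19, 18 and 13 in iPSC. On the scale of gene sums this made 1.84, 1.71 and 2.81 CPM in MEF, 11.7, 11.5 and 4.81 CPM in Stage 1, 9.24, 13.1 and 10.2 CPM in Stage 2 and 13.9, 14.3 and 12.5 CPM in iPSC. Stage 1 replicate 3 was the lowest library after MEF. The log2 fold change from MEF was 2.13 ± 0.39 in Stage 1 (SE, edgeR adjusted p = 2.02e-06), 2.41 ± 0.35 in Stage 2 (1e-08) and 2.74 ± 0.36 in iPSC (5.8e-10), and these calls held with scaling to all reads (1.21, 1.08 and 1.06, adjusted p at most 0.0108). Against background Esx1 went from 1.90 times in MEF (1.62 to 2.41) to 4.03 times in Stage 1 (2.23 to 5.13), with overlap, and stood at 3.54 times in Stage 2 (2.92 to 4.19) and 3.45 times in iPSC (2.85 to 3.82).

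Hand1 (chr11:57828713-57832147; strand not in the table used) had 6.36, 6.85 and 5.27 CPM in MEF, 9.53, 15.9 and 12.03 CPM in Stage 1, 9.78, 14.9 and 11.5 CPM in Stage 2 and 10.3, 12.7 and 13.5 CPM in iPSC. Against MEF its log2 fold change was 0.96 ± 0.29 in Stage 1 (SE, edgeR adjusted p = 0.00245), 0.93 ± 0.27 in Stage 2 (0.00202) and 0.93 ± 0.30 in iPSC (0.00491). Scaled to all reads, the values were 0.02, -0.41 and -0.76, and iPSC was called lower (adjusted p = 0.0385). Neither region overlaps the gene. Region 1 (chr11:57819901-57820450), 8263 bp outside the lower end and linked to Sap30l as well, had 25, 21 and 8 reads in MEF, 11, 12 and 13 in Stage 1, 10, 23 and 11 in Stage 2 and 9, 9 and 14 in iPSC. It rose by 0.95 ± 0.35 in Stage 1 (SE, log2, edgeR adjusted p = 0.0113), a call lost with all reads (0.24, 0.600). The iPSC call of this region (0.77 ± 0.36, 0.0445) was lost without MEF replicate 3 (0.0652) or iPSC replicate 3 (0.228) and with DESeq2 (0.0874). The Stage 2 call (0.89 ± 0.33, 0.0115) was lost without Stage 2 replicate 2 (0.196). Region 2 (chr11:57833751-57834050), 1604 bp outside the upper end and on the MEF list alone, had 3.52 ± 0.557 CPM in MEF and 4.36 ± 2.25, 3.64 ± 1.98 and 3.26 ± 2.98 CPM later (SD, n = 3 each), with overlap, and did not pass the filter. Without a filter it was not called against MEF (0.81, 0.56 and 0.42, edgeR adjusted p = 0.152, 0.322 and 0.514). These folds use scaling factors recomputed over all regions, not those of the CPM beside them. Most reads of Hand1 thus come from a site that is linked to Sap30l as well.

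Plac1 (chrX:53069993-53240110, minus strand) was the gene that fell. It had 83.0, 80.5 and 65.6 CPM in MEF, 11.7, 7.08 and 8.42 CPM in Stage 1, 12.5, 14.3 and 17.0 CPM in Stage 2 and 15.4, 13.5 and 13.5 CPM in iPSC. Summed over 3 libraries these were 1106 reads in MEF and 38, 72 and 52 reads in Stage 1, Stage 2 and iPSC. Its log2 fold change from MEF was -3.07 ± 0.19 in Stage 1 (SE, edgeR adjusted p = 7.38e-24), -2.42 ± 0.16 in Stage 2 (3.85e-22) and -2.44 ± 0.18 in iPSC (5.82e-20). The call held under each alternative run, and leaving out any 1 library gave -3.27 to -2.92 for Stage 1. Against background Plac1 went from 7.54 times in MEF to 0.402, 0.477 and 0.362 times in Stage 1, Stage 2 and iPSC. Values under 1 mean that fewer reads fell here than the library-wide estimate gives.

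All 10 regions of Plac1 lie inside its span of 170118 bp, and all 10 are on the MEF list and on no other. In each of the 10, every MEF library was above all 9 later libraries in CPM, and the mean of each later group was under background. Among all 64720 regions on the MEF list alone, 60.2% separated in this way and 39.3% had means under background in each later group. Region 9 (chrX:53211901-53212550), with the most reads, had 90, 80 and 30 reads in MEF, 3, 0 and 2 in Stage 1, 4, 3 and 5 in Stage 2 and 1, 2 and 1 in iPSC, and its log2 fold change from MEF was -3.70 ± 0.46 in Stage 1 and -4.02 ± 0.48 in iPSC (SE, edgeR adjusted p = 4.05e-12 and 1.25e-12). Region 4 (chrX:53160951-53161600) had 78, 61 and 23 reads in MEF, 2, 0 and 1 in Stage 1, 2, 4 and 1 in Stage 2 and 0, 3 and 2 in iPSC, with -4.09 ± 0.54 in Stage 1 (SE, adjusted p = 4.45e-11). Region 2 (chrX:53114851-53115350), 446 bp upstream of the start whose sequence is shown above, had 46, 39 and 20 reads in MEF and 1 or 2 reads in each later library. It did not pass the filter, as was the case for regions 3, 5, 7, 8 and 10. The other regions passed it through their MEF libraries alone, so the filter favoured their fall. The low values after MEF thus covered counted sites along the whole gene.

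**Figure D2:**
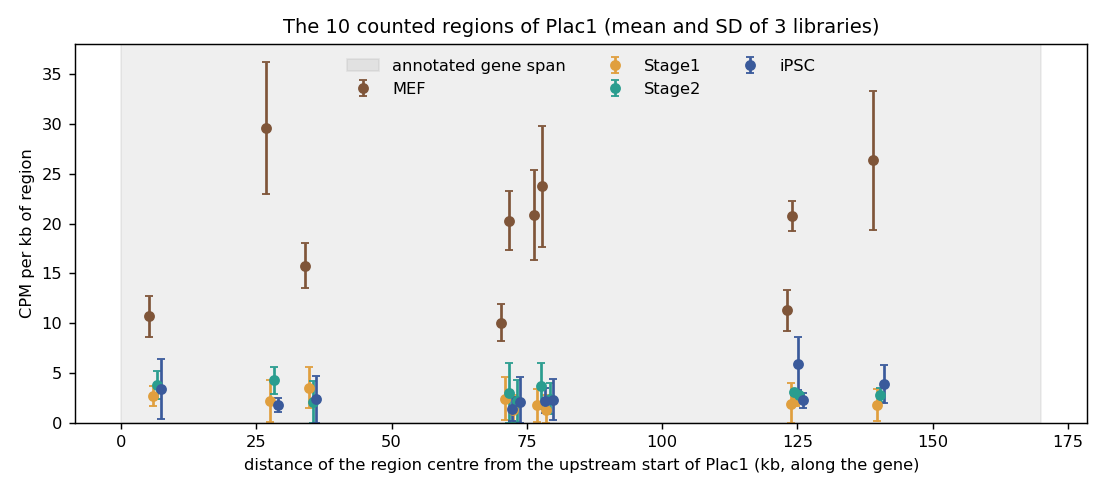
Accessibility of the 10 regions of Plac1 (vertical axis, CPM per kb of region) against the distance of their centres from the upstream start (horizontal axis, kb along the gene, grey for the gene span). Points and bars are the mean and SD of 3 libraries, shifted sideways by group, with bars ending at 0, and the MEF points lie above those of Stage 1, Stage 2 and iPSC at all 10 regions.

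By region, 21 of the 33 passed the filter on low counts. It asks for enough reads, relative to library size, in at least 3 libraries of any group. MEF libraries held more reads in regions, so a region high in MEF alone needed more reads to pass. Region 1 of Tfap2c, with 1, 5 and 5 reads in MEF, passed through its later libraries, and regions 1, 4, 6 and 9 of Plac1 passed through MEF alone. The filter thus favoured a change in these regions, and their tests are not independent of it. Of the 21 regions, 15 rose and 4 fell from MEF to Stage 1, beside 40.0% and 40.4% of all 71069 regions tested. The 4 that fell were regions 1, 4, 6 and 9 of Plac1. The 2 that were not called were region 6 of Eomes and region 3 of Elf5. With no filter, which also changed the scaling factors, all 33 could be tested, and 20 were higher and 9 lower in Stage 1 (34.5% and 34.2% of all regions). Those higher included region 6 of Eomes and region 3 of Elf5, and the added lower ones were regions 2, 3, 5, 8 and 10 of Plac1. Of the others that had failed the filter, region 3 of Cdx2, region 3 of Eomes and region 4 of Elf5 were higher without it (2.28, 3.01 and 1.69 on the log2 scale, edgeR adjusted p = 0.00616, 1.4e-05 and 0.000612). Scaling to all reads left 7 of the 21 regions higher and 4 lower, beside 29.4% and 49.1% of all regions.

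**Figure D3:**
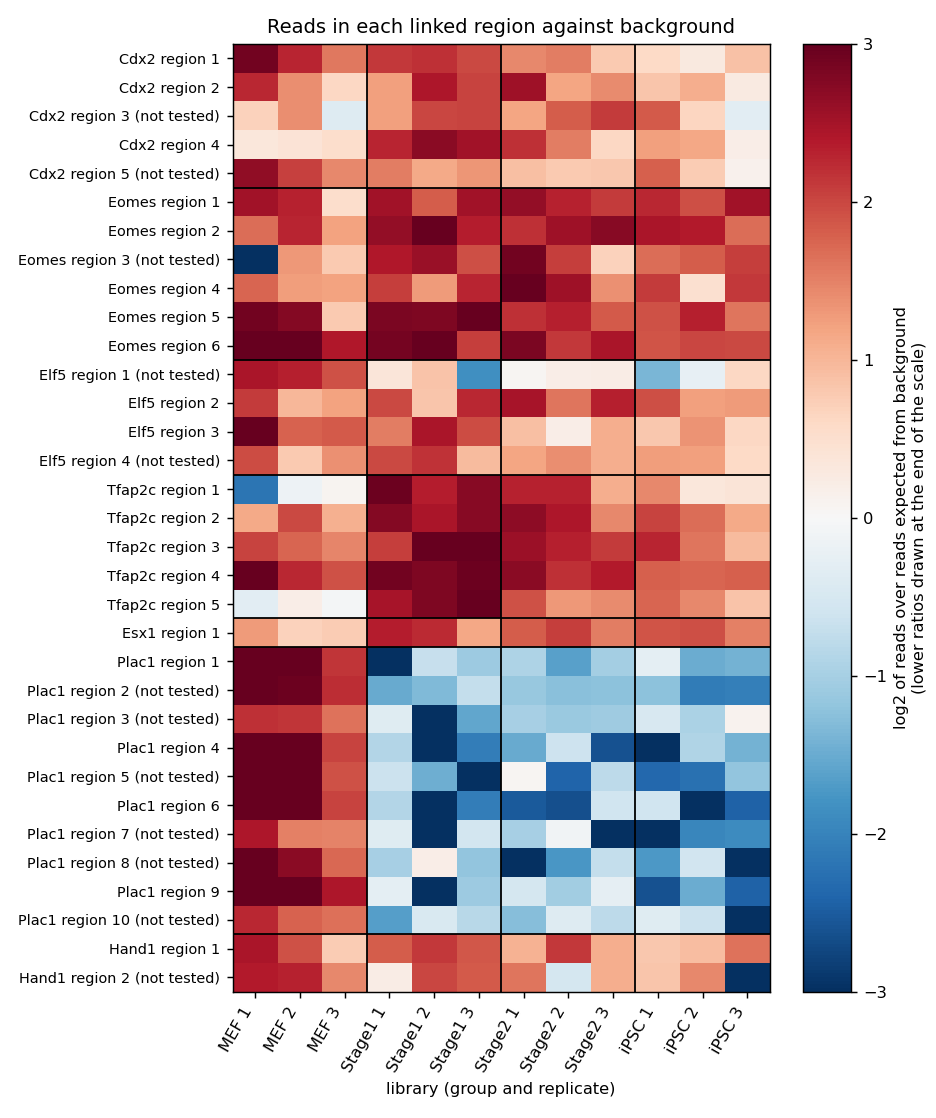
Reads in each of the 33 regions (rows, by gene) in the 12 libraries (columns) as log2 of the ratio to the reads expected from background, with the lowest ratios drawn at the end of the scale. Plac1 is above background in MEF and its group means are below it after, regions 1 and 5 of Tfap2c and region 4 of Cdx2 are near background in MEF, and the ratios of most other regions are lower in iPSC than in Stage 1.

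In the 2 other comparisons with MEF the same counts were found for genes: 6 of 7 higher and 1 lower in Stage 2, and 6 higher and 1 lower in iPSC. All genes gave 33.5% higher and 33.7% lower in Stage 2, and 32.8% and 32.2% in iPSC. These comparisons share the MEF libraries, so their counts are not independent. Among regions 15 were higher and 4 lower in Stage 2 (40.1% and 42.6% of all regions), and 13 higher and 4 lower in iPSC (39.1% and 43.0%). With scaling to all reads, which lowered the median gene to -1.34 in Stage 2 and -1.70 in iPSC, the genes higher numbered 2 and 1 (5.94% and 4.54% of all genes) and those lower 2 and 4 (81.5% and 86.5%). Esx1 was the gene higher than in MEF by both scalings in Stage 1, Stage 2 and iPSC. Tfap2c was so in Stage 1 and Stage 2 (0.75 with all reads, adjusted p = 0.00721), and Plac1 was lower by both in all 3. Over background, the mean went from 3.31 in MEF to 1.79 times in iPSC for Cdx2 and from 5.004 to 4.10 for Eomes. It went from 3.06 to 2.89 for Tfap2c and from 3.87 to 1.98 for Hand1, each of these genes with overlap. Elf5 went down (4.09 to 1.89) and Esx1 up (1.90 to 3.45) without overlap. In Stage 2 the mean was below MEF for Cdx2, Elf5 and Hand1 and above it for Tfap2c, Eomes and Esx1. The part of the falling share of reads in regions was not tested.

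**Figure D4:**
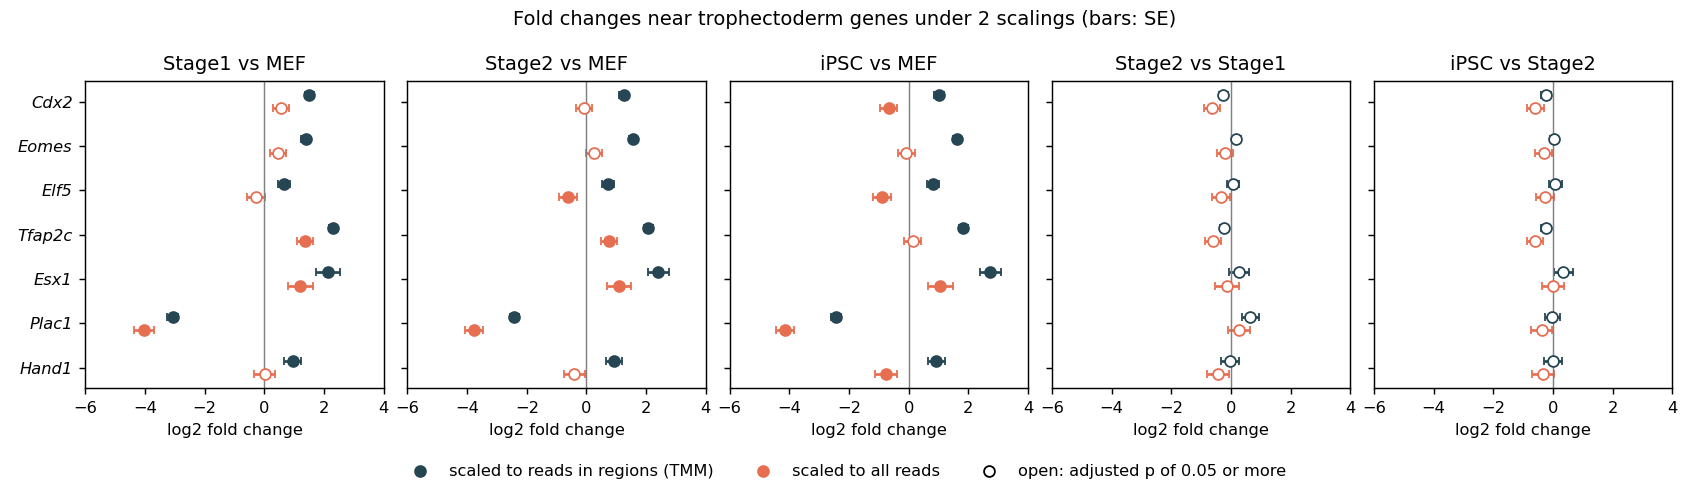
Log2 fold change (horizontal axis) of the 7 genes (rows) in 5 comparisons (panels), scaled to reads in regions or to all reads. Bars are the SE and open points are not called. The first 3 panels show 6 genes above 0 and Plac1 below it with reads in regions, and points to the left of these with all reads, and the last 2 panels show no filled point.

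Between successive stages after MEF few changes were called. None of the 7 genes was called from Stage 1 to Stage 2 with edgeR or DESeq2, where all genes gave 8.53% higher and 7.32% lower. At an unadjusted p under 0.05 there was 1, Plac1, at 0.66 ± 0.28 (SE, log2, edgeR adjusted p = 0.105). From Stage 2 to iPSC no gene was called by either tool, and none had an unadjusted p under 0.05 (5.80% higher and 3.62% lower of all genes). The log2 fold changes of that step lay between -0.25 (Tfap2c) and 0.33 (Esx1), with SE from 0.14 to 0.32. At this depth smaller changes could not be told from the spread of the libraries. Reads over background fell from Stage 1 to Stage 2 without overlap for Tfap2c (6.995 to 4.51 times), Cdx2 (4.34 to 2.75) and Elf5 (2.99 to 2.32). For Eomes, Esx1 and Hand1 they fell with overlap, and Plac1 stayed under background. The share of reads in regions fell as well, and its part in these ratios was not tested.

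Of the 21 regions, 1 was lower in Stage 2 than in Stage 1 and none higher (5.14% higher and 5.62% lower of all regions). This was region 5 of Tfap2c, which went from 22.2 ± 4.95 to 11.1 ± 1.52 CPM (SD, n = 3 each), at -1.01 ± 0.30 (SE, log2, edgeR adjusted p = 0.0151). The call was lost without Stage 1 replicate 3 (0.175) or Stage 2 replicate 2 (0.0865), with DESeq2 (0.0945) and with libraries thinned to equal depth (0.0779). Without Stage 2 replicate 1 the count was 2. From Stage 2 to iPSC no region was called by edgeR or DESeq2 (0.498% higher and 1.36% lower of all regions). At an unadjusted p under 0.05 there were 2, region 2 of Cdx2 and region 1 of Tfap2c.

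Across the longer step from Stage 1 to iPSC, Cdx2 and Tfap2c fell and no gene rose (15.3% higher and 10.3% lower of all genes). Cdx2 went from 61.6 ± 10.4 to 43.4 ± 7.89 CPM (SD, n = 3 each), a log2 fold change of -0.47 ± 0.17 (SE, edgeR adjusted p = 0.0275). This call was lost without Stage 1 replicate 2 (adjusted p = 0.103), iPSC replicate 2 (0.0926) or iPSC replicate 3 (0.133), and with DESeq2 (0.0507). Tfap2c went from 87.1 ± 6.62 to 62.0 ± 11.8 CPM (SD, n = 3 each), at -0.48 ± 0.14 (SE, adjusted p = 0.00753). Its call was lost without Stage 1 replicate 3 (0.0593), iPSC replicate 2 (0.0546) or iPSC replicate 3 (0.0566), and with the regions inside the gene alone (-0.28, 0.218). With scaling to all reads both genes were at -1.23 (log2, adjusted p = 0.000234 for Cdx2 and 0.00015 for Tfap2c). The median gene was then at -0.71, and 9682 of 17536 genes were called lower. Eomes had a value of 0.22 ± 0.15 (SE, log2, adjusted p = 0.264), and -0.53 with all reads.

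Of the regions, 4 fell from Stage 1 to iPSC and none rose (6.74% higher and 9.60% lower of all regions): regions 1 and 4 of Cdx2 (-0.88 and -0.96) and regions 1 and 5 of Tfap2c (-1.26 and -0.90; log2, edgeR adjusted p = 0.0284, 0.0106, 0.00995 and 0.0315). DESeq2 called none of the 4. Each call was lost without some of the libraries. Region 1 of Cdx2 lost it without Stage 1 replicate 1 or 2 (0.0775 and 0.0782) or iPSC replicate 1 or 2 (0.0852 and 0.150), and region 4 without Stage 1 replicate 2 (0.0560) or iPSC replicate 3 (0.0972). Region 1 of Tfap2c lost it without Stage 1 replicate 1 (0.0671), iPSC replicate 2 (0.0854) or iPSC replicate 3 (0.0575). Region 5 lost it without Stage 1 replicate 2 or 3 (0.0521 and 0.209) or iPSC replicate 2 or 3 (0.0911 and 0.153), and with thinned libraries (0.0929). Reads over background were 4.34 times in Stage 1 and 1.79 times in iPSC for Cdx2 and 6.995 and 2.89 times for Tfap2c. This fall was not particular to these genes. The ratio also went down for Eomes (6.12 to 4.10), Elf5 (2.99 to 1.89), Hand1 (3.52 to 1.98) and Esx1 (4.03 to 3.45), which were not called. The share of reads in regions also fell over these stages, and its part in these ratios was not tested.

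The deposited interval lists of the stages give a view without counts. Of the 33 regions, 20 overlap an interval of the MEF list by at least 1 bp, 14 one of Stage 1, 16 one of Stage 2 and 7 one of iPSC. In shares these were 60.6%, 42.4%, 48.5% and 21.2%, beside 74.8%, 31.6%, 32.2% and 24.4% of all 115000 regions. Region 6 of Eomes and region 4 of Tfap2c are on all 4 lists. The 13 regions on the MEF list alone (39.4%, beside 56.3% of all regions) are the 10 of Plac1, region 5 of Cdx2, region 1 of Elf5 and region 2 of Hand1. Another 13 (39.4%, beside 25.2% of all regions) are on later lists but not on that of MEF: 5 of Eomes, 3 of Tfap2c, 2 of Cdx2 and 1 each of Elf5, Esx1 and Hand1. All 5 Tfap2c regions are listed in Stage 1 and in Stage 2, but 1 in iPSC. Each list stands for a stage as a whole and has no replicate error, and absence from a list does not show a closed site: 4 Tfap2c regions absent from the iPSC list were higher in iPSC than in MEF by the test on counts. With all reads, regions 1 and 5 of Tfap2c kept that call (1.43 and 1.60, adjusted p = 0.0125 and 0.00152), and regions 2 and 3 did not (0.38 and 0.16, 0.403 and 0.722).

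Per kb of counted region the order of the genes changed between MEF and the later groups. In MEF the level was highest at Plac1 (14.0 ± 1.72 CPM per kb, SD, n = 3), and its libraries did not overlap those of Eomes, the next gene (9.46 ± 1.81). Elf5, Hand1, Cdx2 and Tfap2c followed with neighbours that overlapped, and Esx1 was last (3.85 ± 1.09) without overlap. In Stage 1 Tfap2c (29.0 ± 2.21) and Eomes (25.5 ± 3.12) led and overlapped each other. Cdx2, Esx1, Hand1 and Elf5 followed between 18.1 and 12.5 CPM per kb, each overlapping the next, and Plac1 was last (1.67 ± 0.439). In iPSC Eomes led (29.6 ± 1.71) without overlap, then Esx1 (24.7 ± 1.69) and Tfap2c (20.7 ± 3.92), which overlapped. Hand1, Elf5 and Cdx2 lay between 14.3 and 12.8 CPM per kb, overlapping, and Plac1 was at 2.59 ± 0.200. In Stage 2 the order was Eomes, Tfap2c, Esx1, Cdx2, Hand1, Elf5 and Plac1, with overlap from Tfap2c to Elf5. These are levels of accessible sites and include background. In CPM that background rises from MEF to iPSC, while the share of reads in regions falls.

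Other trophoblast genes showed no common direction. Of 23 listed, 18 could be tested: Prl2c2, Prl3b1, Rhox6 and Rhox9 had no linked region and Prl3d1 too few reads. From MEF to Stage 1, 8 rose and 7 fell, beside 32.4% and 32.7% of all genes, with a median log2 fold change of 0.11. Ascl2, a factor of the spongiotrophoblast, rose from 10.2 ± 1.06 to 25.4 ± 6.74 CPM and Tfap2a, which encodes another AP-2 factor, rose from 38.6 ± 0.284 to 91.3 ± 15.8 CPM (SD over 3 libraries). Dab2, an endocytic adaptor gene, fell from 96.1 ± 3.50 to 29.8 ± 4.93 CPM and Gcm1, a factor of the labyrinth, from 30.3 ± 0.844 to 11.1 ± 1.98 CPM (3 libraries each). On the log2 scale these were 1.35, 1.26, -1.72 and -1.41 (edgeR adjusted p at most 1.17e-07). Scaled to all reads, none of the 18 was higher (7.56% of all genes).

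From Stage 1 to Stage 2, 3 of the 18 rose and 2 fell, beside 8.53% and 7.32% of all genes (median 0.09, all genes 0.02), including the homeobox gene Dlx3 (1.43 ± 0.30), the keratin gene Krt7 (0.91 ± 0.28) and the receptor gene Fgfr2 (-0.51 ± 0.11; log2, SE, edgeR adjusted p = 0.000288, 0.0169 and 0.000733). From Stage 2 to iPSC 1 rose, Fgfr2, from 92.1 ± 15.4 to 149.9 ± 8.69 CPM (SD, n = 3 each; log2 0.70, adjusted p = 3.1e-05), and none fell, beside 5.80% and 3.62% of all genes. The count of genes that rose was 2 without MEF replicate 1 or Stage 1 replicate 1. From Stage 1 to iPSC 5 rose and 1 fell, beside 15.3% and 10.3% of all genes. From MEF to iPSC 7 rose and 4 fell (median 0.19), beside 32.8% and 32.2% of all genes. Ascl2 was at 1.71, Tfap2a at 1.39, Dab2 at -1.10 and Gcm1 at -0.48 on the log2 scale (edgeR adjusted p at most 0.0218). The 4 that fell became 2 without iPSC replicate 1, and with scaling to all reads 14 of the 18 were lower and none higher, beside 86.5% and 4.54% of all genes. Dab2 and Gcm1 were lower in Stage 1 and iPSC than in MEF, as Plac1 was, and Ascl2 and Tfap2a higher as the other 6 genes were.

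The genes most like each of the 7 were sought by Pearson r of log2 CPM over the 12 libraries among 17278 genes. The libraries fall into MEF and later ones, so r mainly reflects that gap and is given as a description. For Tfap2c they were Reps2 (r = 0.993), Zfp972 (0.992) and Sall4 (0.991), the last a pluripotency factor. For Plac1 they were Wwc2 (0.994), Klk9 (0.993) and Cit (0.991), and for Cdx2 Atn1 (0.978), Grsf1 (0.973) and Grcc10 (0.973). For Eomes they were Gm44501 and Esp5, which have the same linked regions (0.989), and 1700024G13Rik (0.989). For Esx1 they were Rps26 (0.976), Hoxb13 (0.973) and Gm34298 (0.970). Elf5 was nearest to Cdkn1b (0.949), Lrp10 (0.933) and Adra2b (0.927), and Hand1 to Tlcd3b (0.949), Creg1 (0.943) and Mybl1 (0.941). An r of at least 0.9 was reached by 1486 genes for Eomes, 1454 for Tfap2c, 1050 for Plac1, 771 for Esx1 and 684 for Cdx2, but by 95 for Hand1 and 19 for Elf5.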

How the data were processed

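The deposited values used were whole-number counts of reads per region in 12 libraries, with totals of reads outside regions, which the authors made with tools that the submitters' processing notes list without roles: HTSeq 0.5.4p3, Picard 2.6.0, Bowtie2 2.2.6, DESeq2 1.12.4 and SAMtools 0.1.19, on mm10. The peak caller is not given in the sources used here. Counts per region, and per gene summed over regions overlapping it or within 10 kb (protein-coding RefSeq genes, GRCm38.p6), were tested with edgeR 4.0.16 in R 4.3.3: TMM, filterByExpr (minimum 10, total 15), robust quasi-likelihood F tests (two-sided) in 1 model of 4 groups, Benjamini-Hochberg over all features, called at adjusted p under 0.05. The method was tested on simulated data. CPM uses reads in regions, and for genes the summed reads. SE is the fold over the root of F. Background is the read density outside regions. Alternatives were DESeq2 1.42.0, scaling to all reads, no filter, a replicate block, equal depth, other region sets and leaving out each library. All replicate pairs differed beyond sampling noise. The genes, lists and rules were chosen with earlier results of these data known. For each gene the regions nearest the start, with most reads and with the largest rise or fall are named; of other trophoblast genes, the 2 largest rises and falls without overlap.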

Additional observations from a re-analysis of the deposited data

How the results depend on the processing

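Scaling to all reads changed most. Member genes higher became 2 in Stage 1, 1 in iPSC and 2 in Stage 2 against MEF, and those lower 4 in iPSC and 2 in Stage 2. Of the 21 regions, those higher became 7 in Stage 1, 3 in iPSC and 8 in Stage 2 against MEF. Among all 71069 regions tested, 20868, 16839 and 19455 were higher. Regions lower in iPSC became 7 against MEF and 7 against Stage 1, beside 41083 and 15742 of all regions. Other trophoblast genes higher became 0 in Stage 1 and in iPSC against MEF, 0 in Stage 2 against Stage 1 and 0 in iPSC against Stage 2, and 14 were lower in iPSC than in MEF. Sign turns on the log2 scale are listed for the genes and for regions called in the main test. Against MEF the sign turned in Stage 1, Stage 2 and iPSC for Elf5 (-0.29, -0.62, -0.89). In Stage 2 and iPSC it turned for Cdx2 (-0.072, -0.67), Hand1 (-0.41, -0.76), region 1 of Hand1 (-0.14, -0.49) and region 5 of Eomes (-0.078, -0.22). In iPSC it turned for Eomes (-0.075) and region 4 of Tfap2c (-0.63). In Stage 2 it turned for region 6 of Eomes (-0.49) and in Stage 1 for region 1 of Cdx2 (-0.078). It turned in Stage 2 against Stage 1 for Eomes (-0.21), Elf5 (-0.33) and Esx1 (-0.13), in iPSC against Stage 2 for Eomes (-0.32), Elf5 (-0.28), Esx1 (-0.018) and Hand1 (-0.35), and in iPSC against Stage 1 for Eomes (-0.53), Elf5 (-0.61), Esx1 (-0.15) and Plac1 (-0.11). With DESeq2, 1 gene and 0 regions were lower in iPSC than in Stage 1, 0 regions lower in Stage 2 than in Stage 1, and 1 other trophoblast gene higher there. With regions inside genes alone 1 gene was lower in iPSC than in Stage 1, and 1 other trophoblast gene lower in Stage 2 than in Stage 1, as with unshared regions (1). Without a filter 9, 8 and 8 regions were lower than in MEF in Stage 1, Stage 2 and iPSC. More regions were tested there, and the scaling factors were recomputed as well. Thinned libraries left 2 other trophoblast genes lower in iPSC than in MEF. Small values of uncalled steps also turned: in iPSC against Stage 2 Eomes was -0.062 and Elf5 -0.056 with unshared regions, Eomes -0.034 and Hand1 -0.12 when thinned, and Hand1 -0.019 with DESeq2 and -0.0046 without a filter; Elf5 was -0.19 in Stage 2 against Stage 1 when thinned. The causes of these changes were not tested.

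Leaving out 1 library gave 0 to 2 genes and 1 to 4 regions lower in iPSC than in Stage 1, 0 to 2 regions lower in Stage 2 than in Stage 1, and 1 to 2 other trophoblast genes higher in iPSC than in Stage 2 and 2 to 5 lower than in MEF. Log2 values ran across 0 in iPSC against Stage 2 for Eomes (-0.0027 to 0.071), Elf5 (-0.040 to 0.22), Plac1 (-0.13 to 0.063) and Hand1 (-0.14 to 0.19), in Stage 2 against Stage 1 for Elf5 (-0.11 to 0.19), Esx1 (-0.10 to 0.49) and Hand1 (-0.22 to 0.11), and in iPSC against Stage 1 for Hand1 (-0.22 to 0.092). The 6 rises and 1 fall of genes in Stage 1, Stage 2 and iPSC against MEF were called without any 1 library. No pairing by replicate number was seen: deviations of same-numbered libraries correlated at -0.0645 to 0.0656, and those of different numbers at -0.0761 to 0.0750. Counts per region are low, so this could not exclude a pairing, and the labels give none. The replicate block gave 2 other trophoblast genes higher in iPSC than in Stage 2 and changed none of the calls of the 7 genes, with 6 higher and 1 lower in Stage 1 against MEF. The filter on low counts left 12 of the 33 regions out of the main test. It is set relative to library size, so these were not simply the regions with fewest reads. Region 2 of Plac1 failed it with 46, 39 and 20 reads in the larger MEF libraries.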
